A study of Bos taurus with 11 samples.

Results

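The miR-29 family was followed in mammary gland biopsies of 5 Holstein and 6 Montbéliarde cows, sampled in mid-lactation on the same diet, with 1 small RNA library per cow. Both are dairy breeds, and the comparison addressed whether mammary miRNAs differ between the breeds. According to the study's methods, a further Holstein cow was left out because of mastitis. No sorting of cells is described, so that any cell type of the biopsy could contribute to a library. The members were the rows of the deposited count table named bta-miR-29a, bta-miR-29b, bta-miR-29c, bta-miR-29d-3p, bta-miR-29d-5p and bta-miR-29e, written here without the species prefix. All 6 were listed among the 796 miRNAs of the table, and 5 of them were among the 550 miRNAs that had at least 10 counts summed over the 11 libraries and were tested. The counts of all miRNAs of a library, called its counted reads here, summed to between 6087865 and 16808976. Of these, 9395 to 29025 belonged to the family. In each breed the mean sum was above the number of cleaned reads that the study gives. Some reads were therefore counted for more than 1 miRNA, and the sum is not a number of reads.

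A microRNA recognises its messenger RNAs mainly through the seed at its 5′ end, and the canonical miR-29 members share their seed and so are thought to share most of their targets. The family is best known for repressing genes of the extracellular matrix, such as collagens and elastin, and the DNA methyltransferases DNMT3A and DNMT3B. In cultured mammary epithelial cells of dairy cows it has been linked to DNA methylation and to the expression of lactation genes. The functional strand is usually the one cut from the 3′ arm of the hairpin, whereas the 5′ arm is usually degraded.

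In the RefSeq annotation of the assembly ARS-UCD2.0, a later one than the authors used, 6 genes encode the family. *MIR29A* lies next to *MIR29B-1*, and both are inside an uncharacterised long noncoding RNA. *MIR29B-2* lies next to *MIR29C*, between *CD34* and *CD46*. *MIR29E* lies next to *MIR29D*, inside an uncharacterised protein-coding gene on the same chromosome as *MIR29C*. The table had 1 row for *miR-29b*, which therefore cannot be divided between its 2 genes. It had separate rows for the 5′ and 3′ arms of *miR-29d* only, and whether reads from the 5′ arms of *miR-29a*, *miR-29b* or *miR-29c* were counted in another row was not tested.

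The family was moderately expressed, and 2 members made up nearly all of it. The summed normalized read count, which is the raw count divided by 1 DESeq2 size factor per library, averaged 17169 ± 1056 (SD) over the 5 Holstein cows and 15311 ± 1867 (SD) over the 6 Montbéliarde cows. This corresponded to 0.176% ± 0.0132 of the counted reads in Holstein and 0.157% ± 0.0277 in Montbéliarde. The log2 ratio of the breed means of the sum was -0.17, beside a standard deviation within breeds of 0.14 on the log2 scale, and the sum was not tested. Averaged over the libraries, *miR-29a* held 61.3% of the family, *miR-29c* 33.8% and *miR-29b* 4.42%. Among the 754 miRNAs with any count, these members ranked 56, 70 and 130 by their mean normalized read count.

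**Figure D1:**
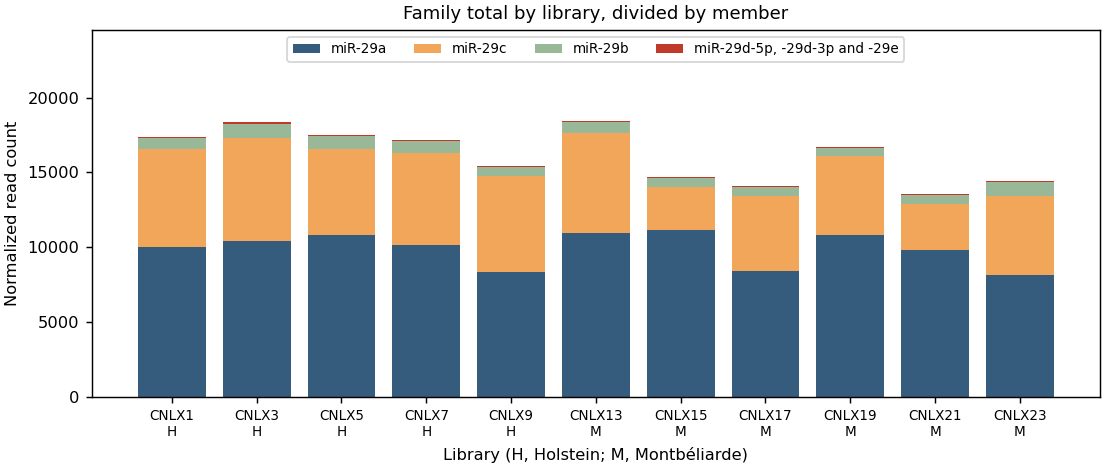
Normalized read count of the family in each of the 11 libraries (bars, linear axis from 0), divided into *miR-29a*, *miR-29c*, *miR-29b* and the sum of the other members. The *miR-29c* part of the bar is smallest in CNLX15 and CNLX21, where it holds 19.5% and 22.8% of the family counts, and between 31.6% and 41.3% in the other libraries.

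The order of the levels was the same in all 11 libraries, from *miR-29a* through *miR-29c*, *miR-29b*, *miR-29d-5p* and *miR-29d-3p* to *miR-29e*. No member's range over the libraries reached that of its neighbour in this order. The lowest normalized read count of *miR-29a* was 8136 and the highest of *miR-29c* 6905. The lowest of *miR-29d-5p* was 43.9 and the highest of *miR-29d-3p* 35.0. Counts of different miRNAs also depend on how well each is ligated to the adapters, so that the order is that of reads and may differ from that of molecules.

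*miR-29a*, the most abundant member, differed between the breeds by less than its spread among cows. Its normalized read counts in Holstein were 10001 in CNLX1, 10408 in CNLX3, 10772 in CNLX5, 10113 in CNLX7 and 8355 in CNLX9. In Montbéliarde they ranged from 8136 to 11158, with a median of 10302. CNLX9, CNLX17 and CNLX23 were the low libraries, 1 from Holstein and 2 from Montbéliarde, and the breeds overlapped over almost their whole range. The log2FC, Montbéliarde over Holstein, was -0.011 (standard error 0.15), and its 95% interval allows a ratio between 0.800 and 1.23 (adjusted p = 0.983, quasi-likelihood F-test of edgeR, Benjamini-Hochberg procedure over all 550 miRNAs). *miR-29a* was also among the steadier miRNAs, since its biological coefficient of variation, 0.206, was above that of 9.81% of the 214 tested miRNAs with a mean normalized read count of at least 100.

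*miR-29c* was uniform in Holstein and spread widely in Montbéliarde. Its normalized read counts in Holstein were 6540 in CNLX1, 6905 in CNLX3, 5767 in CNLX5, 6196 in CNLX7 and 6380 in CNLX9. In Montbéliarde the lowest was 2868, in CNLX15, the median 5148 and the highest 6678, in CNLX13. Of the 6 Montbéliarde libraries, 5 were below the lowest Holstein library, and CNLX13 was within the Holstein range. CNLX15 and CNLX21, at 2868 and 3077, stood apart from the other libraries, of which the lowest was 5022. The coefficient of variation was 6.62% in Holstein and 31.1% in Montbéliarde, a difference that was not tested. It was also higher in Montbéliarde for *miR-29a* (9.36% and 13.6%), *miR-29b* (14.6% and 21.1%) and *miR-29d-5p* (9.81% and 27.6%). For *miR-29d-3p* it was lower there (40.9% and 31.8%). The log2FC of *miR-29c* was -0.44 (standard error 0.20), with a 95% interval of the ratio from 0.545 to 0.999 and an unadjusted p of 0.0491, and it did not pass the adjustment over all miRNAs (edgeR, adjusted p = 0.348). It was -0.25 without CNLX15, -0.29 without CNLX21 and, without both, a choice made after seeing the data, -0.12.

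*miR-29b*, a member that has been described as short-lived in dividing cells and as partly nuclear, had between 0.0479 and 0.111 reads per read of *miR-29a*. Its normalized read counts in Holstein were 722 in CNLX1, 908 in CNLX3, 884 in CNLX5, 772 in CNLX7 and 632 in CNLX9. In Montbéliarde they ranged from 518 to 905, with a median of 609. CNLX23 was the only Montbéliarde library in the upper part of the Holstein range, and 3 of the 6 were below every Holstein library. The log2FC was -0.26 (standard error 0.18), with a 95% interval of the ratio from 0.641 to 1.08 (adjusted p = 0.492, same test).

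The arms of *miR-29d* were rare, and the 5′ arm had more reads than the 3′ arm in 11 of 11 libraries. Whether the row of *miR-29d-5p* also holds reads from the 5′ arms of other members, which have no row of their own, was not tested, and this limits what the ratio of the arms stands for. The normalized read counts of *miR-29d-5p* in Holstein were 84.3 in CNLX1, 86.0 in CNLX3, 66.4 in CNLX5, 81.1 in CNLX7 and 78.2 in CNLX9. In Montbéliarde the lowest was 43.9, the median 51.9 and the highest 87.1. Of the Montbéliarde libraries, 5 lay between 43.9 and 53.3, below every Holstein library, whereas CNLX23 was above every Holstein library. The log2FC was -0.49 (standard error 0.21), with a 95% interval of the ratio from 0.517 to 0.974 and an unadjusted p of 0.0359, and it did not pass the adjustment (edgeR, adjusted p = 0.318). Without CNLX23 the log2FC was -0.67. In the same library the TMM scaling factor of edgeR, which does not enter the normalized read counts, was 1.19, higher than in the other libraries (0.896 to 1.05). Over all libraries, edgeR gave a log2FC of -0.46 with library totals only and of -0.49 with DESeq2 size factors in place of TMM. As a percent of counted reads, which uses no scaling factor, *miR-29d-5p* was 0.00105% in CNLX23 and at most 0.000916% in Holstein. Beyond these values and fits, the part of the scaling in the result was not tested.

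*miR-29d-3p* had between 6 and 38 raw counts per library, so that each value rests on few reads. In CNLX9 its 6 counts have an exact Poisson 95% interval from 2.20 to 13.1, which covers counting error only. Its normalized read counts in Holstein were 15.8 in CNLX1, 26.6 in CNLX3, 22.9 in CNLX5, 15.8 in CNLX7 and 7.82 in CNLX9, and in Montbéliarde they ranged from 14.9 to 35.0, with a median of 20.1. CNLX15, the library with the least *miR-29c*, had the highest value, and the breeds overlapped. The log2FC was 0.29 (standard error 0.32), and the 95% interval of the ratio, 0.764 to 1.95, spans lower and higher levels (edgeR, adjusted p = 0.726).

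*miR-29e* had 8 counts in all, 5 in Holstein and 3 in Montbéliarde, and no library had more than 2. It was counted in 5 of the 11 libraries and did not reach the minimum for the test. No library reached 3 counts, so that no fold change is given.

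**Figure D2:**
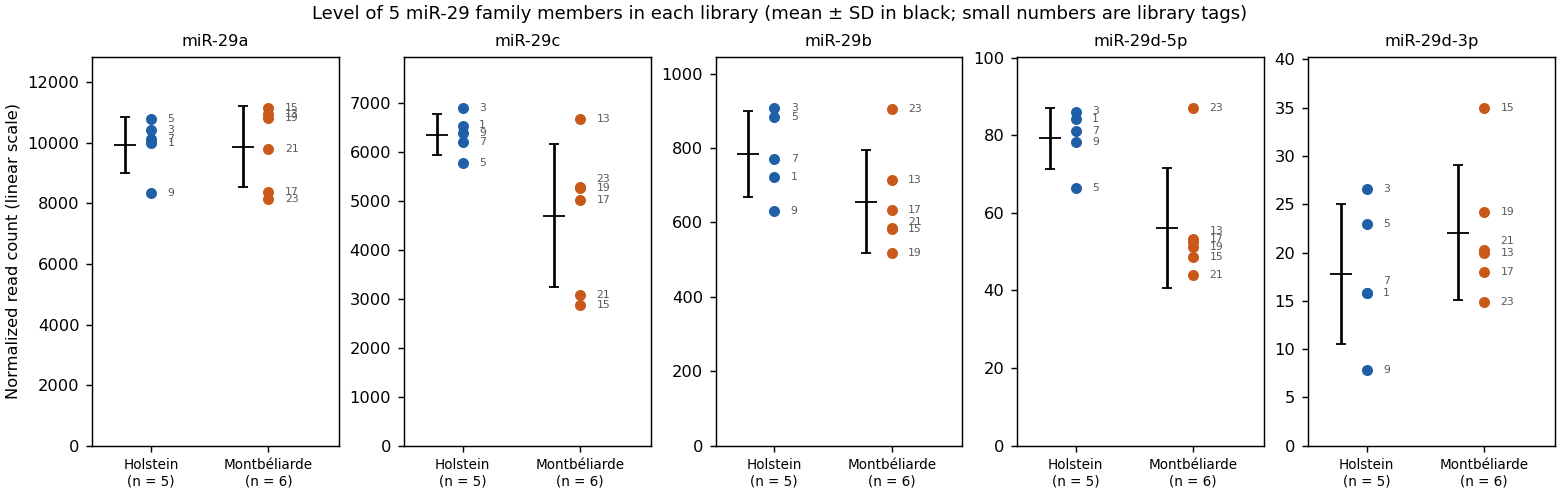
Normalized read count (linear axes from 0, 1 panel per member) of *miR-29a*, *miR-29c*, *miR-29b*, *miR-29d-5p* and *miR-29d-3p* in 5 Holstein (blue) and 6 Montbéliarde (orange) libraries, with the mean ± SD in black and the tag of each library beside its point. The breeds overlap in every panel, *miR-29c* is lowest in CNLX15 and CNLX21 (2868 and 3077), and for *miR-29d-5p* CNLX23 (87.1) lies far above the other Montbéliarde libraries.

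None of the 5 tested members had an adjusted p of at most 0.05 with edgeR, whereas 0.364% of all tested miRNAs did, and none did with the Wald test of DESeq2, which called 4.86% of the 432 miRNAs it adjusted. At an unadjusted p of at most 0.05 with edgeR there were 2 of the 5, *miR-29c* and *miR-29d-5p*, both lower in Montbéliarde, beside 14.2% of all tested miRNAs in either direction and 6.55% lower in Montbéliarde. With DESeq2 this held for *miR-29d-5p* alone (unadjusted p = 0.0270, adjusted p = 0.182). The median log2FC of the 5 members was -0.26, and that of all 550 tested miRNAs was 0.027. No member had breeds that did not overlap, as 2% of the tested miRNAs did.

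**Figure D3:**
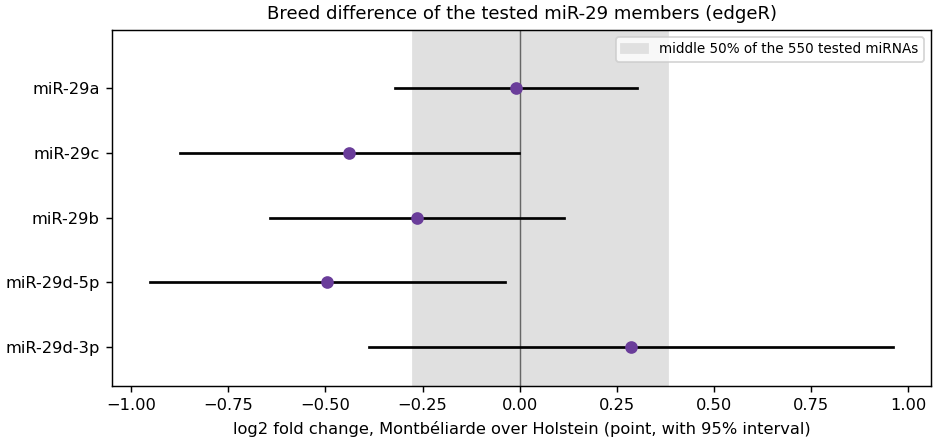
Estimated log2 fold change of the 5 tested members, Montbéliarde over Holstein (points), with 95% intervals from edgeR (lines) and the interquartile range of the 550 tested miRNAs (grey band, from -0.27 to 0.38). The intervals of *miR-29a*, *miR-29b* and *miR-29d-3p* include 0, and those of *miR-29c* (-0.88 to -0.0021) and *miR-29d-5p* (-0.95 to -0.037) end just below it, before adjustment.

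Since members of a library share its scaling, their count ratios were compared without any normalization. The ratio of *miR-29c* to *miR-29a* averaged 0.646 ± 0.0830 (SD) over the 5 Holstein cows and 0.486 ± 0.165 (SD) over the 6 Montbéliarde cows. It was lowest in CNLX15, at 0.257, and in CNLX21, at 0.314, and the difference of the mean log2 ratios, Montbéliarde minus Holstein, was -0.48 and did not pass the test (two-sided exact permutation p = 0.108, adjusted over the 4 ratios 0.144). The ratio of *miR-29b* to *miR-29a* was 0.0787 ± 0.00596 in Holstein and 0.0686 ± 0.0230 in Montbéliarde (exact p = 0.234, adjusted 0.234). The smallest p this exact test can give is 0.00216.

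Neither ratio that involves the *miR-29d* arms passed the test over all libraries. For *miR-29d-5p* to *miR-29a* the Holstein cows averaged 0.00805 ± 0.00117 (SD) and the Montbéliarde cows 0.00591 ± 0.00245 (SD) (exact permutation p = 0.0584, adjusted 0.126). The ratio of the 3′ to the 5′ arm of *miR-29d* was 0.228 ± 0.0994 in Holstein and 0.423 ± 0.181 in Montbéliarde (exact permutation p = 0.0628, adjusted 0.126). It ranged from 0.100 in CNLX9 to 0.718 in CNLX15. In Montbéliarde, CNLX23 had the highest value of the 3 ratios to *miR-29a* and the lowest ratio of the arms. Without CNLX23 each of the 4 differences had the same sign and passed the threshold, with adjusted exact permutation p-values of 0.0476 for *miR-29c* to *miR-29a* and 0.0212 for each of the others. None of the 4 passed when any other single library was left out. CNLX23 ran against these differences, so that leaving it out lowers p, and this result is not read as support. The 4 ratios also share members and are not independent.

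**Figure D4:**
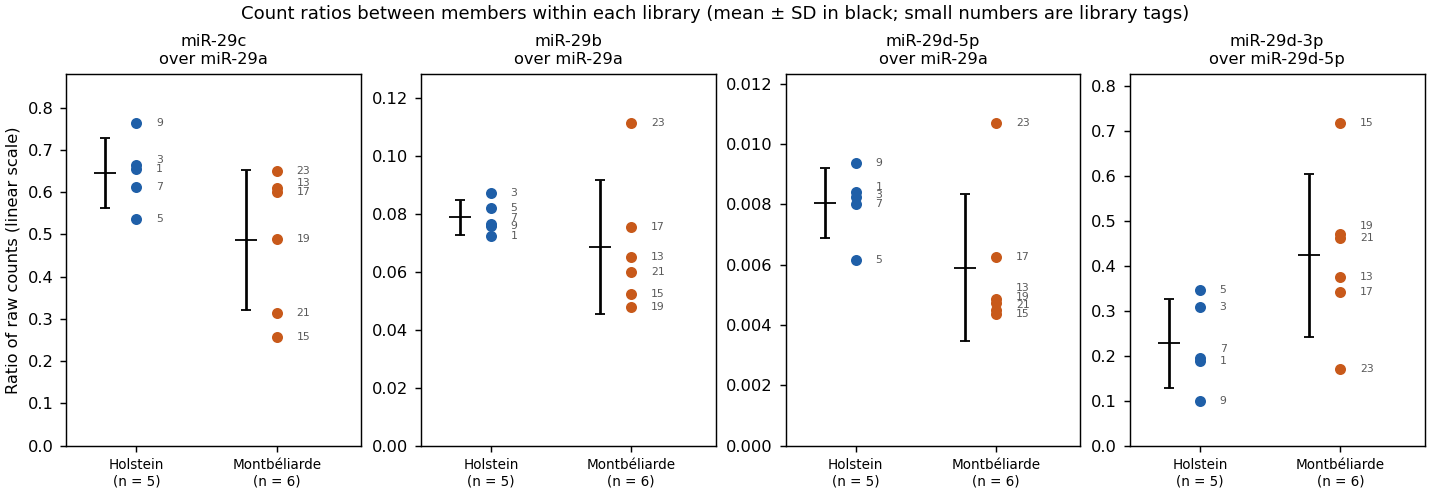
Ratio of raw counts within each library (linear axes from 0) for *miR-29c*, *miR-29b* and *miR-29d-5p* over *miR-29a* and for the 3′ over the 5′ arm of *miR-29d*, in 5 Holstein (blue) and 6 Montbéliarde (orange) libraries, with mean ± SD in black and library tags beside the points. CNLX23 is the highest Montbéliarde library in the first 3 panels (0.650, 0.111 and 0.0107) and the lowest in the last (0.171).

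No relation of *miR-29a* to *miR-29b*, *miR-29c* or *miR-29d-5p* was detected across the 11 cows. On the log2(normalized read count + 1) scale, Pearson's r of *miR-29a* was -0.11 with *miR-29b*, -0.12 with *miR-29c* and -0.33 with *miR-29d-5p*, whereas on the percent of counted reads it was 0.21, 0.23 and 0.15, and none passed (permutation p from 0.300 to 0.788 on the first scale). Between *miR-29b* and *miR-29c*, r was 0.53 (Spearman's rho = 0.61, permutation p = 0.0941, adjusted over the 6 pairs 0.188). For *miR-29b*, which has 1 gene beside *MIR29A* and 1 beside *MIR29C*, the difference between its correlations with *miR-29a* and *miR-29c* was not tested. *miR-29d-5p* was correlated with *miR-29b* (r = 0.74, rho = 0.85, permutation p = 0.0147, adjusted over the 6 pairs 0.0442) and with *miR-29c* (r = 0.70, rho = 0.69, permutation p = 0.00677, adjusted 0.0406 for r and 0.0676 for rho). Without CNLX3 and CNLX19, the libraries farthest from the median of *miR-29b*, r with *miR-29b* was 0.67 (rho = 0.78, permutation p = 0.0570 for r). Without CNLX15 and CNLX21, the libraries farthest from the median of *miR-29c*, r with *miR-29c* was 0.44 (rho = 0.45, permutation p = 0.232 for r). Within Montbéliarde, r was 0.87 with *miR-29b* (rho = 0.77, exact permutation p = 0.0458 for r, n = 6). With *miR-29c* it was 0.46 (rho = 0.83, exact permutation p = 0.392 for r, n = 6). CNLX23 was the highest Montbéliarde library for both *miR-29b* and *miR-29d-5p*. Without it, r between these 2 members over the remaining libraries of both breeds was 0.69 (permutation test, adjusted p = 0.1005). The 5 Holstein libraries are too few for a correlation.

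Among the 211 other miRNAs with a mean normalized read count of at least 100, those closest to *miR-29c* over the 11 libraries were *miR-200c* (r = 0.96), *miR-429* (0.93), *let-7a-3p* (0.91), *miR-148d* (0.90) and *miR-148a* (0.90). *miR-200c* and *miR-429* belong to the miR-200 family, which maintains the epithelial state. Those closest to *miR-29a* were *miR-199b* (r = 0.74), *miR-342* (0.65), *miR-199a-5p* (0.65), *miR-497* (0.64) and *miR-125b* (0.64), and the miR-199 family is known from fibroblasts and other mesenchymal cells. No miRNA was among the 5 closest of both members. These miRNAs were chosen for their correlation, which is given as a description over libraries that share their depth and scaling.

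The level of miRNAs that mark epithelial cells was set beside the members because *miR-200c* and *miR-429*, which are in that list, were the closest to *miR-29c*. The correlations with marker levels are therefore given as descriptions, with no test. Of 7 listed epithelial miRNAs, 6 were in the table (*miR-200a*, *miR-200b*, *miR-200c*, *miR-141*, *miR-429* and *miR-205*), and none of the 6 was at 0. Their summed normalized read count ranged from 367535 to 466746 among the Holstein cows and from 180093 to 469496 among the Montbéliarde cows, and *miR-141* made up 71.8% of it. It was lowest in CNLX21 and CNLX15, the libraries with the least *miR-29c*, and highest in CNLX13, the Montbéliarde library with the most. In bulk tissue, fewer cells of a type and less RNA per cell cannot be told apart.

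Over the 11 libraries, r with this level was 0.93 for *miR-29c* (rho = 0.95) and -0.038 for *miR-29a* (rho = 0.10). It was 0.63 for *miR-29b* (rho = 0.58) and 0.68 for *miR-29d-5p* (rho = 0.61), and 0.48 and 0.40 without CNLX15 and CNLX21. For *miR-29c* it was 0.88 without CNLX15 and CNLX21 and 0.89 within the 6 Montbéliarde libraries. The ratio of *miR-29c* to *miR-29a*, in which the scaling of the library cancels, had an r of 0.85 with the same level (rho = 0.71) and of 0.83 within Montbéliarde, but of 0.52 without CNLX15 and CNLX21. Taken singly, 5 of the 6 epithelial miRNAs had an r with *miR-29c* between 0.82 and 0.96, and *miR-205*, which in the mammary gland is known from basal cells, had an r of -0.44. Values of similar size occurred outside this list, with 0.82 for the muscle *miR-499* and -0.88 for the leukocyte *miR-155*. With the summed level of 5 leukocyte miRNAs, r was 0.60 for *miR-29a* (rho = 0.55) and -0.57 for *miR-29c* (rho = -0.17).

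**Figure D5:**
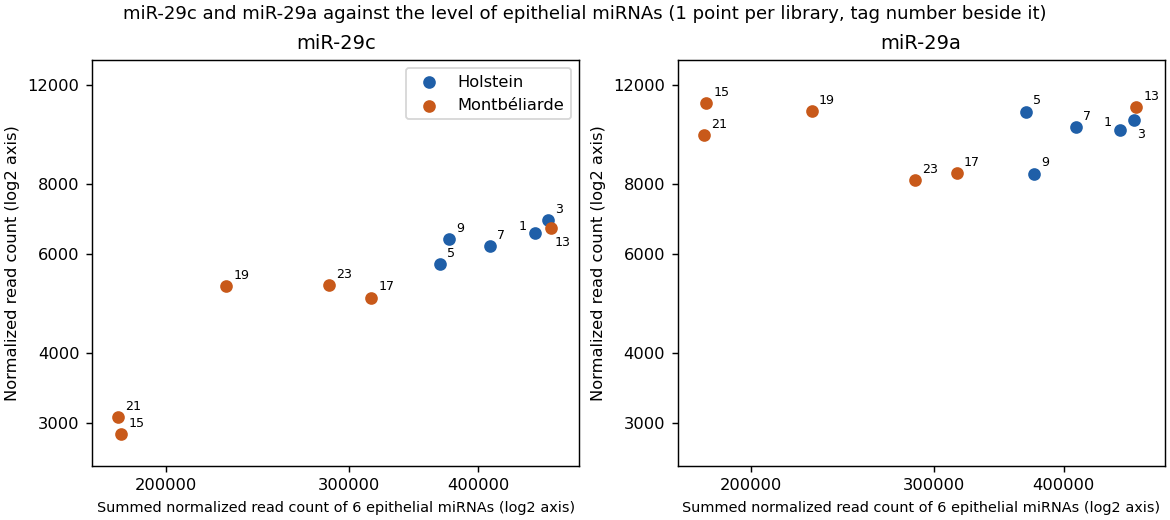
Normalized read count of *miR-29c* (left) and *miR-29a* (right) against the summed normalized read count of 6 epithelial miRNAs, 1 point per library with its tag number, Holstein in blue and Montbéliarde in orange, on log2 axes. For *miR-29c* (r = 0.93) CNLX15 and CNLX21 are at the lower left and the Holstein libraries at the upper right, and for *miR-29a* (r = -0.038) CNLX15 and CNLX21 are as high as the Holstein libraries.

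For the stromal miRNAs *miR-143*, *miR-145*, *miR-199a-3p*, *miR-199a-5p*, *miR-199b* and *miR-214*, none of which was at 0, the summed level ranged from 1513729 to 2305715 among the Holstein cows and from 1928358 to 3870328 among the Montbéliarde cows. *miR-143*, a miRNA of smooth muscle and fibroblasts, made up 99.3% of the sum. The r with this level was 0.15 for *miR-29a* (rho = 0.30) and -0.53 for *miR-29b* (rho = -0.52). It was -0.81 for *miR-29c* (rho = -0.66) and -0.79 for *miR-29d-5p* (rho = -0.72). Without CNLX1 and CNLX15, the libraries farthest from the median of the stromal level, r was -0.67 for *miR-29c* and -0.76 for *miR-29d-5p*. Without CNLX15 and CNLX21 it was -0.47 and -0.68. Within Montbéliarde it was -0.81 and -0.72. Taken singly, 5 of the 6 stromal miRNAs had a negative r with both *miR-29c* and *miR-29d-5p*, and *miR-145*, a miRNA of smooth muscle, had an r of -0.33 with *miR-29c* and of 0.30 with *miR-29d-5p*. With *miR-29a* the single stromal miRNAs ranged from an r of 0.015 for *miR-145* and 0.14 for *miR-143* to 0.74 for *miR-199b*.

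None of the 6 epithelial and none of the 6 stromal miRNAs passed the adjusted breed test. At an unadjusted p of at most 0.05, *miR-200c* and *miR-141* were lower and *miR-143* and *miR-199a-3p* higher in Montbéliarde. Within the same lists the epithelial *miR-205* had a log2FC of 0.38 (edgeR, unadjusted p = 0.0559) and the stromal *miR-145* one of -0.27 (unadjusted p = 0.290), each opposite in sign to the named members of its list. The part of tissue composition in the levels of the family was not tested. No endothelial, leukocyte, erythroid or muscle miRNA of the lists had a p of at most 0.05 before or after adjustment, and the median log2FC of these lists was -0.081, 0.40, 0.28 and 0.20.

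Other miRNAs known to act on DNA methyltransferases, on matrix genes or on the mesenchymal state were compared between the breeds in the same fit. Of 9 miRNAs known to target DNA methyltransferases, none passed the adjustment in either direction, and their median log2FC was -0.16, beside 0.027 for all tested miRNAs. The 9 include *miR-152* and *miR-148c*, whose counts were in a constant ratio. Each of these had a log2FC of -0.16, and that of *miR-152* is the median. The most abundant, *miR-143*, which is known to target DNMT3A, had a log2FC of 0.58 (adjusted p = 0.171), and *miR-185*, which is known to target DNMT1, averaged 187 ± 48.4 (SD) normalized reads in Holstein and 133 ± 29.4 (SD) in Montbéliarde (log2FC = -0.49, edgeR, unadjusted p = 0.0476, adjusted p = 0.344). Of 23 miRNAs known from the regulation of matrix genes or of the mesenchymal state, none passed, and their median log2FC was 0.060. At an unadjusted p of at most 0.05, *miR-143*, *miR-199a-3p* and *let-7c* were higher and *miR-200c* and *miR-141* lower in Montbéliarde. *miR-143* is in both lists. The log2FC of *let-7c*, a member of the let-7 family, was 0.51 (adjusted p = 0.325, same test).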

How the data were processed

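Small RNA libraries of mammary biopsies from 5 Holstein and 6 Montbéliarde cows were compared, with breed taken from the sample records. According to the methods, the authors trimmed adaptors, size-selected the reads and quantified them with ncPRO-seq and miRDeep2 against an earlier bovine assembly and miRBase. The authors deposited raw counts per mature miRNA, and a signal, the normalized read counts, which is each count divided by 1 DESeq2 size factor per library. The submitters' processing notes name DESeq2 1.18.1. Recomputed size factors gave these values within 0.000275%. Deposited breed means and the authors' fold changes and p-values were not used. The treatment of reads shared by several miRNAs is not given in the sources used here. No member had counts in a constant ratio to another miRNA, as 11 pairs did within a ratio of 1.02.

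The count test was edgeR 4.0.16 in R 4.3.3 (TMM, robust glmQLFit, glmQLFTest) on miRNAs with at least 10 counts over the 11 libraries, with Benjamini-Hochberg adjustment and a threshold of 0.05. DESeq2 1.42.0 and limma 3.58.1 were alternatives, as were other normalizations, filters, covariates and each library left out. Ratios were compared by exact permutation over 462 splits and correlations by 100000 permutations. All tests were two-sided, and the edgeR and ratio tests were checked on simulated data. Intervals of counts hold for counting error alone, as the reads carry no molecular identifiers. Libraries go by their tag. The tags of the breeds do not interleave, so an order of preparation that followed them could not be told apart from breed. Named were all members, the 5 miRNAs closest to *miR-29a* and to *miR-29c*, and from each list of other miRNAs the most abundant and those with an unadjusted p of at most 0.05, and a clause of this rule on miRNAs with the same seed was not used here. The members and lists were chosen with earlier results of these data known. The tolerance for constant ratios and the rows given to DESeq2 (all of the table, default settings) were set after first results had been seen. Plots were drawn with matplotlib 3.10.9.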

Additional observations from a re-analysis of the deposited data

Results flagged for a closer look

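Among 24 groups of values (members and count ratios within each breed), 3 had a library far from the others of its breed by Dixon's criterion, and chance flags about 1 in 20 such groups. Among the Montbéliarde libraries, CNLX23 stood apart with a normalized read count of *miR-29d-5p* of 87.1, with a gap to the next library that was 0.782 of the range, and with a ratio of *miR-29d-5p* to *miR-29a* of 0.0107, with a gap of 0.700 of the range. CNLX15 stood apart with a ratio of *miR-29d-3p* to *miR-29a* of 0.00314, with a gap of 0.683 of the range. That value rests on 28 counts of *miR-29d-3p*, whose exact Poisson 95% interval is 18.6 to 40.5.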

How the results depend on the processing

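No member passed the adjusted threshold under any of the 23 alternatives, and the smallest adjusted p was 0.0808, for *miR-29d-5p* without CNLX23 (edgeR). Before adjustment, 2 members had a p of at most 0.05 with edgeR and with limma and without CNLX23, and 0 or 1 in the other 21 alternatives. The sign of the log2FC was kept throughout for *miR-29b*, *miR-29c* and *miR-29d-5p*, which without 1 library at a time lay between -0.38 and -0.14, -0.57 and -0.25, and -0.67 and -0.38. Its size was not kept. With the epithelial level as covariate the log2FC of *miR-29c* was -0.0024. With the stromal level as covariate the log2FC was -0.022 for *miR-29c*, -0.094 for *miR-29b* and -0.18 for *miR-29d-5p*. For *miR-29a* the log2FC turned positive in 13 alternatives: 0.047 for a mean of at least 100, 0.044 with read-sharing miRNAs reduced to 1, 0.060 with the library total as covariate, 0.020 without CNLX15 and CNLX21, and from -0.073 to 0.067 without 1 library at a time. For *miR-29d-3p* it was -0.18 with the stromal level as covariate. Over all miRNAs, edgeR called 2, DESeq2 21 and edgeR with DESeq2 size factors 0. The edgeR fit called 1 with library totals, 0 with read-sharing miRNAs reduced, 0 with either marker level as covariate and 0 to 6 without 1 library at a time. Both marker levels were added as covariates after the data were seen, the epithelial one because *miR-200c* and *miR-429* were the closest to *miR-29c*. The members' values under either covariate are therefore not read as support. Without 1 library at a time the log2 difference in the ratio to *miR-29a* was -0.58 to -0.32 for *miR-29c*, -0.40 to -0.16 for *miR-29b* and -0.70 to -0.44 for *miR-29d-5p*, and for the 3′ over the 5′ arm of *miR-29d* 0.64 to 1.14. All 4 passed only without CNLX23. On the percent of counted reads the r of *miR-29a* was 0.21 with *miR-29b*, 0.23 with *miR-29c* and 0.15 with *miR-29d-5p*, and without 1 library at a time it was -0.24 to 0.16 with *miR-29b* and -0.21 to 0.17 with *miR-29c*. Both correlations of *miR-29d-5p* missed the adjusted threshold in 8 of 13 alternatives. Without CNLX15 and CNLX21 the r of *miR-29a* was 0.29 with the epithelial and -0.13 with the stromal level. The matrix list had 0 to 1 calls without 1 library at a time, the 1 without CNLX13. The causes were not tested. No paired analysis was made, since each cow belonged to 1 breed and gave 1 library. Few reads lie behind *miR-29d-3p* and *miR-29e*. The p-values measure the spread between cows sampled once, and the marker comparisons and the fits without CNLX15 and CNLX21 were added after seeing the data.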

Other observations

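Among the 211 abundant miRNAs compared, *miR-29b* and *miR-29d-5p* shared 4 of their 5 closest miRNAs over the 11 libraries, a pattern chosen after the values were seen and given as a description. These were *miR-19a* and *miR-19b*, which belong to the miR-17-92 cluster, *miR-500* and *miR-664b*. The r of *miR-19b* was 0.73 with *miR-29b* and 0.91 with *miR-29d-5p*, and that of *miR-500* was 0.78 and 0.93. *miR-29c* shared 1 of its closest, *let-7a-3p*, with *miR-29d-5p*, and *miR-29a* shared none with any other member. At the other end, the lowest r was -0.89 for *miR-29a*, with *miR-22-5p*, and -0.91 for *miR-29c*, with *miR-218*. The ratio of *miR-29d-5p* to *miR-29c*, also computed after seeing the data, averaged 0.0124 ± 0.000618 (SD) over the Holstein cows and 0.0127 ± 0.00377 (SD) over the Montbéliarde cows (exact permutation p = 0.883).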
